A study of Homo sapiens with 28 samples.

Results

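The RNA-Seq data of 2 prostate cancer cell lines were examined here for 10 enzymes of androgen metabolism. These were 5 UDP-glucuronosyltransferases (UGT2B7, UGT2B11, UGT2B15, UGT2B17 and UGT2B28), 3 aldo-keto reductases (AKR1C1, AKR1C2 and AKR1C3), SRD5A1 and HSD17B4. They were taken by gene symbol, and all 10 were found among the 19662 gene symbols measured. PC3 cells, which do not depend on androgens, were transfected with a control siRNA (siCtrl) or with siRNA against the transcription factor ONECUT2 (siOC2). LNCaP cells, an androgen-responsive adenocarcinoma line, carried an empty vector (EV) or overexpressed Flag-tagged ONECUT2 (OC2). Each was kept in normoxia or in hypoxia at 0.2% oxygen, which gives 8 groups with 2 libraries each, 16 in all. In the siOC2 groups replicate 1 is siRNA1 and replicate 2 is siRNA2, so that the spread of a siOC2 group holds the difference between the siRNAs. The time in hypoxia before RNA was taken is not given in the sources used here, and nothing states that the replicates are separate cultures, so that P values may measure technical spread. Relative depth, estimated from the smallest steps of the values, ranged from 0.548 to 1 of the deepest library in LNCaP and from 0.303 to 1 in PC3 cells.

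The level of androgens inside a prostate cell depends on enzymes that make and remove them. SRD5A1 reduces testosterone to the more potent dihydrotestosterone, and AKR1C3 makes testosterone from androstenedione. AKR1C1 and AKR1C2 reduce dihydrotestosterone to weak diols, HSD17B4 oxidizes the hydroxyl group of sex steroids besides its role in peroxisomal fatty acid oxidation, and the UGT2B enzymes attach glucuronic acid to androgens so that they can leave the cell. UGT2B15 and UGT2B17 are the main androgen-conjugating enzymes of the prostate.

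The members lie in 4 places of the genome (GRCh37, genes as in GENCODE v44lift37). The UGT2B genes form a cluster on chromosome 4, with UGT2B17 from 69402891 to 69442131, UGT2B15 from 69512315 to 69536370 and UGT2B11 from 70065669 to 70080466 on the minus strand, and UGT2B7 from 69917081 to 69978705 and UGT2B28 from 70146193 to 70160768 on the plus strand. The AKR1C genes are neighbours on chromosome 10, with AKR1C1 from 5005445 to 5025475 (plus), AKR1C2 from 5029967 to 5060223 (minus) and AKR1C3 from 5077546 to 5149878 (plus). SRD5A1 (6633540 to 6674499) and HSD17B4 (118788160 to 118972894) lie far apart on chromosome 5, both on the plus strand. RPKM, reads scaled to gene length and to the mapped reads of a library, cover the exons of each gene.

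Within the clusters the genes are close copies, which bears on every value below. The coding sequences of AKR1C1 and AKR1C2 are 98% identical, those of UGT2B11 and UGT2B28 97% and those of UGT2B15 and UGT2B17 96.5%. Of all 75-base windows of the AKR1C2 coding sequence, 40.8% occur unchanged in the main transcript of another gene of its family, most often AKR1C1, and this share was 35.5% for AKR1C1, 24.3% for UGT2B15 and for UGT2B17, 22.5% for UGT2B11, 15.7% for UGT2B28, 15.3% for AKR1C3 and 2.71% for UGT2B7. It was 0% for SRD5A1 and HSD17B4. How Cufflinks split reads from shared windows is part of the authors' counting, so values of single copies are uncertain, and summed values are given beside them.

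The copies also share sequence in front of the gene. RefSeq start sites were at hand for 8 of the 10 members, and the 250 bases before each were searched on both strands for the ONECUT core ATTGAT, the NRF2 element TGACNNNGC, the HIF core ACGTG or GCGTG and the HNF1 half-site GTTAAT. Among 35116 promoters in the table, 5.58%, 10.9%, 43.2% and 6.23% hold these letters. The windows of UGT2B11 (chr4:69214749-69214998, minus strand) and UGT2B15 (chr4:68670653-68670902, minus strand), both of GRCh38.p14, are shown because both genes fell in hypoxia in LNCaP cells with EV. Each holds the ONECUT core at almost the same distance, 45 to 40 bases before the start of UGT2B11 and 46 to 41 bases before that of UGT2B15, and capitals mark all matches of the 4 motifs. In UGT2B15 they include a second ONECUT core on the opposite strand (138 to 133 bases before the start), and in UGT2B11 an NRF2 element on the opposite strand (217 to 209).
UGT2B11: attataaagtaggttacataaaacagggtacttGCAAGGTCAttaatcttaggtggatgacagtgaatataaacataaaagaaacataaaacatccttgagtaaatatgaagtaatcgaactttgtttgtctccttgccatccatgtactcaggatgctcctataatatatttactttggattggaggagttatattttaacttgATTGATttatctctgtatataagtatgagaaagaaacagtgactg
UGT2B15: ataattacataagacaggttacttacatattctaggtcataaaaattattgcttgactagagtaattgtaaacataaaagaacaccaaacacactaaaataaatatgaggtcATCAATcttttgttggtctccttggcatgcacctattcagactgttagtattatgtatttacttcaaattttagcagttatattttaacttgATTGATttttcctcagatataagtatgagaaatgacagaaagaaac
The windows of AKR1C1 (chr10:4963165-4963414, plus strand) and AKR1C2 (chr10:5003858-5004107, minus strand), also of GRCh38.p14, are 96.5% identical and hold none of the letters, so they carry no capitals. They are shown as the promoters of the pair whose values moved together.
AKR1C1: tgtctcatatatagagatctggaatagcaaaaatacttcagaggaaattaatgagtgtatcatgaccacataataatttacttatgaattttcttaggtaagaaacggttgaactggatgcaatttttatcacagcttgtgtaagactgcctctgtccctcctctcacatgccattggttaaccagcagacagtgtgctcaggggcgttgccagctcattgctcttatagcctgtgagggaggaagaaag
AKR1C2: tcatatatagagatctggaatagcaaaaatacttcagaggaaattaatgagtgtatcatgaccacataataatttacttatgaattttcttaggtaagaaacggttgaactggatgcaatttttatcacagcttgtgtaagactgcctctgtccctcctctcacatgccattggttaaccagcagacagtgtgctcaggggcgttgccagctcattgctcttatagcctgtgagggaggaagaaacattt
Of the other windows, the upstream start of AKR1C3 has an ONECUT core 32 to 27 bases before it, SRD5A1 has 3 HIF cores, and those of UGT2B7, HSD17B4 and the downstream start of AKR1C3 have no match. A match of letters is not a binding site, and the ChIP-Seq samples of the series were not analysed here.

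The lines differed sharply in which of these enzymes they express. In LNCaP cells UGT2B15 ranged from 38.0 to 85.5 RPKM over the 8 libraries (median 66.3), UGT2B17 from 21.9 to 48.8, UGT2B11 from 14.3 to 24.8, UGT2B28 from 3.11 to 7.93 and UGT2B7 from 0.333 to 1.56. In PC3 cells none of the 5 exceeded 0.0672 RPKM in any library, and most of these values are listed at 0, so no UGT2B gene was tested there. HSD17B4 was the most abundant member in both lines. Its mean of 2000 RPKM ranks 49th of all genes in LNCaP cells, and its mean of 168 RPKM ranks 376th in PC3 cells. The AKR1C genes were low in both, between 0.243 and 4.88 RPKM in LNCaP and between 0.219 and 5.55 RPKM in PC3 cells, and SRD5A1 lay between 8.85 and 10.7 and between 2.99 and 4.65 RPKM. The tables of the lines were made separately and their sums of RPKM differ (813232 to 961906 in LNCaP and 401332 to 513810 in PC3 libraries), so these levels stand side by side without a test.

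The identity of the cells was checked with marker genes. KLK3, the androgen-induced gene of prostate-specific antigen, lay between 1842 and 3997 RPKM in LNCaP cells and is listed at 0 in all PC3 libraries. CD44, VIM, CAV1 and AXL, which mark PC3 cells, summed to between 311 and 1157 RPKM there and to between 24.01 and 58.7 RPKM in LNCaP cells. Markers of blood, fibroblasts and hepatocytes (6 of 7 measured) together reached at most 2.03 RPKM, with ALB the most abundant in LNCaP and LUM in PC3 cells. Silencing lowered ONECUT2 in PC3 cells (called in normoxia, limma adjusted p = 0.332) from 1.77 and 1.16 RPKM to 0.276 and 0.204 RPKM in normoxia, and the values in hypoxia were 0.648 and 0.550 RPKM against 0.125 and 0.214 RPKM. ONECUT2 reached 1 RPKM only in the 2 siCtrl libraries in normoxia, so it passed the filter only through the group in which it is high. In LNCaP cells ONECUT2 has 2.89 and 7.86 RPKM in the EV libraries in normoxia and 11.5 and 3.09 RPKM in hypoxia, but no value in the OC2 libraries, so its overexpression could not be checked in these data.

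**Figure D1:**
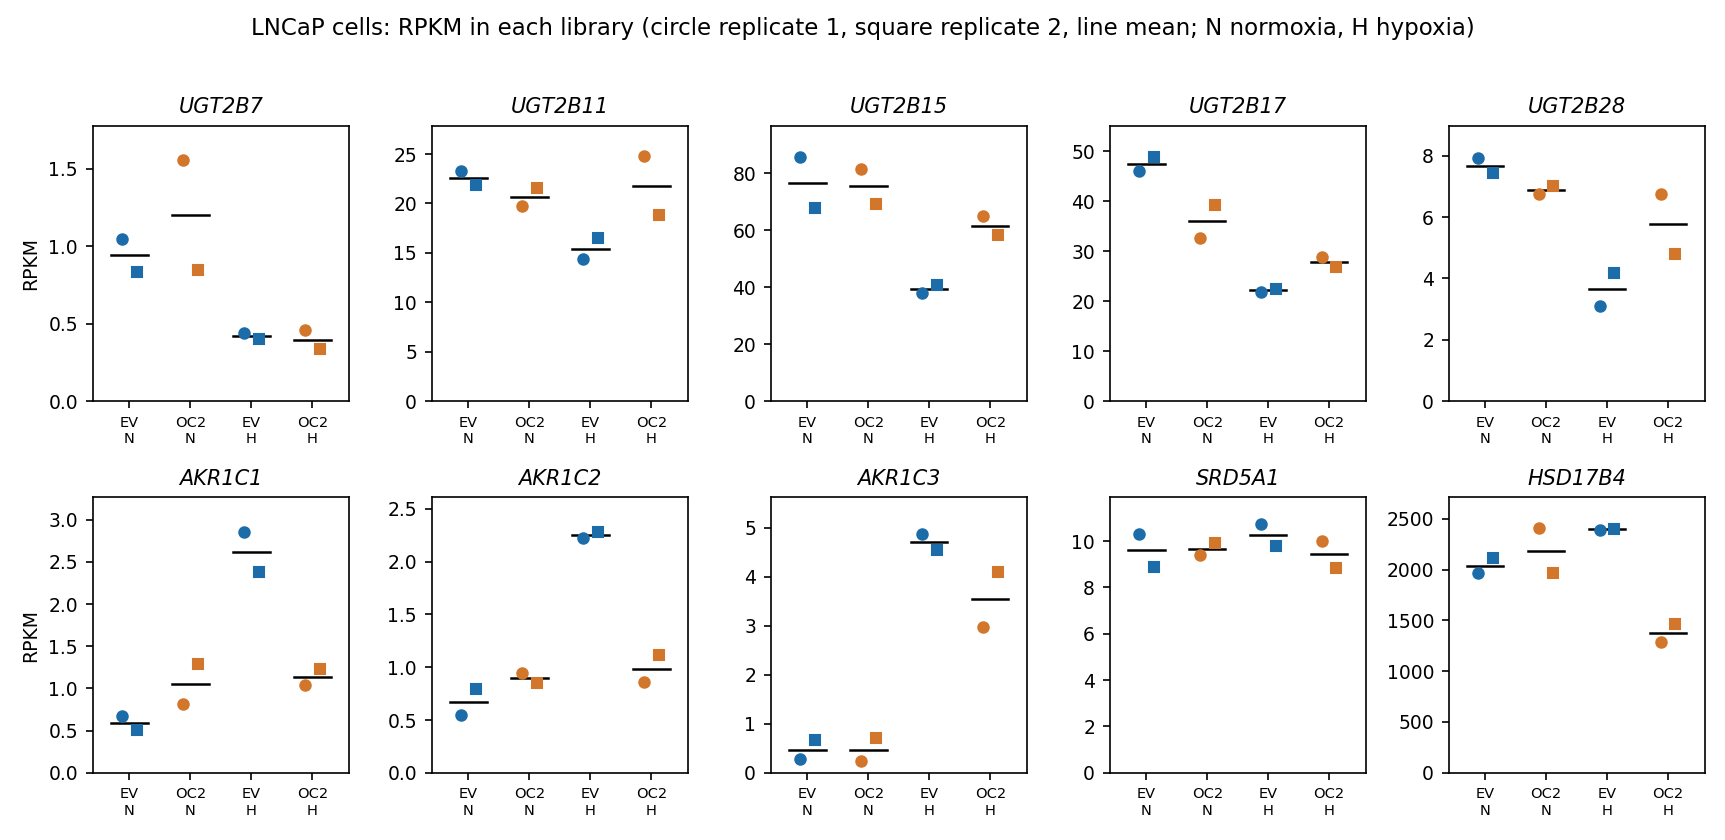
RPKM of the 10 enzymes (vertical axes, linear from 0) in the 8 LNCaP libraries, by empty vector (EV, blue) or ONECUT2 (OC2, orange) in normoxia (N) or hypoxia (H); circles are replicate 1, squares replicate 2 and lines the mean of both. UGT2B11, UGT2B15, UGT2B17 and UGT2B28 are lowest and AKR1C1 and AKR1C2 highest in the EV libraries in hypoxia, and HSD17B4 is lowest in the OC2 libraries in hypoxia.

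In LNCaP cells with the empty vector, hypoxia lowered 4 of the 5 UGT2B genes and raised the 3 AKR1C genes. UGT2B17 and UGT2B28 fell by more than the fold limit, UGT2B15 and UGT2B11 by less, while AKR1C3 rose most of the 10. In all, 12283 genes reached 1 RPKM in 2 or more libraries, and their log2(RPKM + 0.1) was fitted with limma. A call required more than a 2-fold difference together with an unadjusted P below 0.05. Called were 3 members upward and 2 downward, 5 of 10, against 7.95% of all genes tested. A Benjamini-Hochberg adjusted p under 0.05, over all genes, was reached by 7 of 10 members against 32.3% of all genes. The verbs rose and fell are used below for genes that met either limit. All 10 members passed the filter on low values, but AKR1C2 and AKR1C3 did so only through their hypoxia libraries, AKR1C1 through these and 1 OC2 library in normoxia, and UGT2B7 only through 1 EV and 1 OC2 library in normoxia, so that the filter itself favoured a difference in these genes.

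UGT2B17 stood at 46.1 and 48.8 RPKM in normoxia and at 21.9 and 22.4 RPKM in hypoxia (log2 fold change -1.09, standard error 0.11, limma adjusted p = 4.1e-04). UGT2B15 stood at 85.5 and 67.7 RPKM in normoxia and at 38.0 and 40.9 RPKM in hypoxia (log2 fold change -0.95, standard error 0.14, limma adjusted p = 0.00192), just short of the fold limit, which it passed (-1.03) when libraries were scaled to their upper quartile. For both genes each hypoxic library lay below each normoxic library, by a wide gap. In RNA of whole cultures, fewer cells that express a gene and less RNA per cell cannot be told apart. Their summed value, which does not depend on how reads were split between these copies, was 124 ± 10.7 RPKM (SD, n = 2) in normoxia and 61.6 ± 2.32 RPKM (SD, n = 2) in hypoxia. UGT2B28, an androgen-conjugating enzyme of the same cluster, stood at 7.93 and 7.43 RPKM and then at 3.11 and 4.18 RPKM (log2 fold change -1.07, standard error 0.20, limma adjusted p = 0.00533). Without replicate 1 of the EV libraries in hypoxia its log2 fold change was -0.86, under the fold limit. The other copies in the cluster had the same order. UGT2B11, whose steroid substrates are less well defined, stood at 23.3 and 21.9 RPKM and then at 14.3 and 16.5 RPKM (log2 fold change -0.55, standard error 0.15, limma adjusted p = 0.0234). UGT2B7, a broad conjugator of steroids and drugs, was near the filter at 1.05 and 0.834 RPKM and then 0.439 and 0.402 RPKM, without overlap, and its log2 fold change of -0.99 (standard error 0.34) had a limma adjusted p of 0.0547, which became 0.046 (log2 fold change -1.06) with upper quartile scaling. All 5 were lower in both hypoxic EV libraries than in both normoxic ones, as were 32.4% of all genes tested, and 4 of the 5 had an adjusted p under 0.05.

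The AKR1C genes moved the other way, from low values. AKR1C3 stood at 0.288 and 0.660 RPKM in normoxia and at 4.88 and 4.55 RPKM in hypoxia, a 9.94-fold rise of the mean RPKM and 3.15 on the fitted log2(RPKM + 0.1) scale (standard error 0.44, limma adjusted p = 0.00166). AKR1C1 stood at 0.676 and 0.504 RPKM and then at 2.85 and 2.38 RPKM (log2 fold change 1.98, standard error 0.28, limma adjusted p = 0.0016), and AKR1C2 at 0.544 and 0.791 RPKM and then at 2.22 and 2.29 RPKM (log2 fold change 1.64, standard error 0.25, limma adjusted p = 0.00241). None of the 3 genes overlapped between the oxygen levels, and 37.1% of all genes tested were likewise higher in both hypoxic libraries. That AKR1C2 and AKR1C3 were tested at all depends on the hypoxia libraries, where they are high. The 3 copies summed to 1.73 ± 0.316 RPKM (SD, n = 2) in normoxia and to 9.58 ± 0.523 RPKM (SD, n = 2) in hypoxia. SRD5A1 and HSD17B4, the members outside the clusters, were not called. SRD5A1 stood at 10.3 and 8.89 RPKM and then at 10.7 and 9.81 RPKM, which overlap, with a 95% confidence interval of the log2 fold change from -0.20 to 0.39. HSD17B4 stood at 1967 and 2113 RPKM and then at 2388 and 2404 RPKM, higher without overlap, and its log2 fold change of 0.23 had a limma adjusted p of 0.175.

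With ONECUT2 overexpressed, the response to hypoxia looked different. Called in the OC2 libraries were AKR1C3 upward and UGT2B7 downward, 2 of 10 members against 6.84% of all genes, and 4 of 10 members had an adjusted p under 0.05 against 26.9% of all genes. AKR1C3 rose from 0.243 and 0.706 RPKM to 2.98 and 4.10 RPKM (log2 fold change 2.77, standard error 0.44, limma adjusted p = 0.00353). AKR1C1 was at 0.810 and 1.29 RPKM in normoxia and at 1.04 and 1.23 RPKM in hypoxia, and AKR1C2 at 0.944 and 0.851 RPKM and at 0.861 and 1.11 RPKM, both with overlap. Their 95% confidence intervals ran from -0.50 to 0.77 and from -0.46 to 0.69 on the log2 scale. Apart from UGT2B7, the UGT2B genes differed less between the oxygen levels here than with EV, and the interaction given below tests that difference. UGT2B17 fell by 0.37 on the log2 scale (limma adjusted p = 0.0457), from 32.8 and 39.2 RPKM to 28.9 and 26.8 RPKM. UGT2B15 (81.4 and 69.3, then 64.8 and 58.3 RPKM) and UGT2B28 (6.76 and 7.01, then 6.74 and 4.78 RPKM) were lower without overlap, as were 26.1% of all genes, but neither reached an adjusted p under 0.05, and UGT2B11 overlapped at 19.7 and 21.5 and then 24.8 and 18.8 RPKM. Only UGT2B7, the lowest of the 5, was called. It fell from 1.56 and 0.844 RPKM to 0.462 and 0.333 RPKM (log2 fold change -1.34, standard error 0.34, limma adjusted p = 0.0223), and without replicate 1 of the OC2 libraries in normoxia its log2 fold change was -0.94. HSD17B4 fell from 2409 and 1963 RPKM to 1291 and 1465 RPKM (log2 fold change -0.66, standard error 0.12, limma adjusted p = 0.00672), the reverse of its order in the EV libraries.

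**Figure D2:**
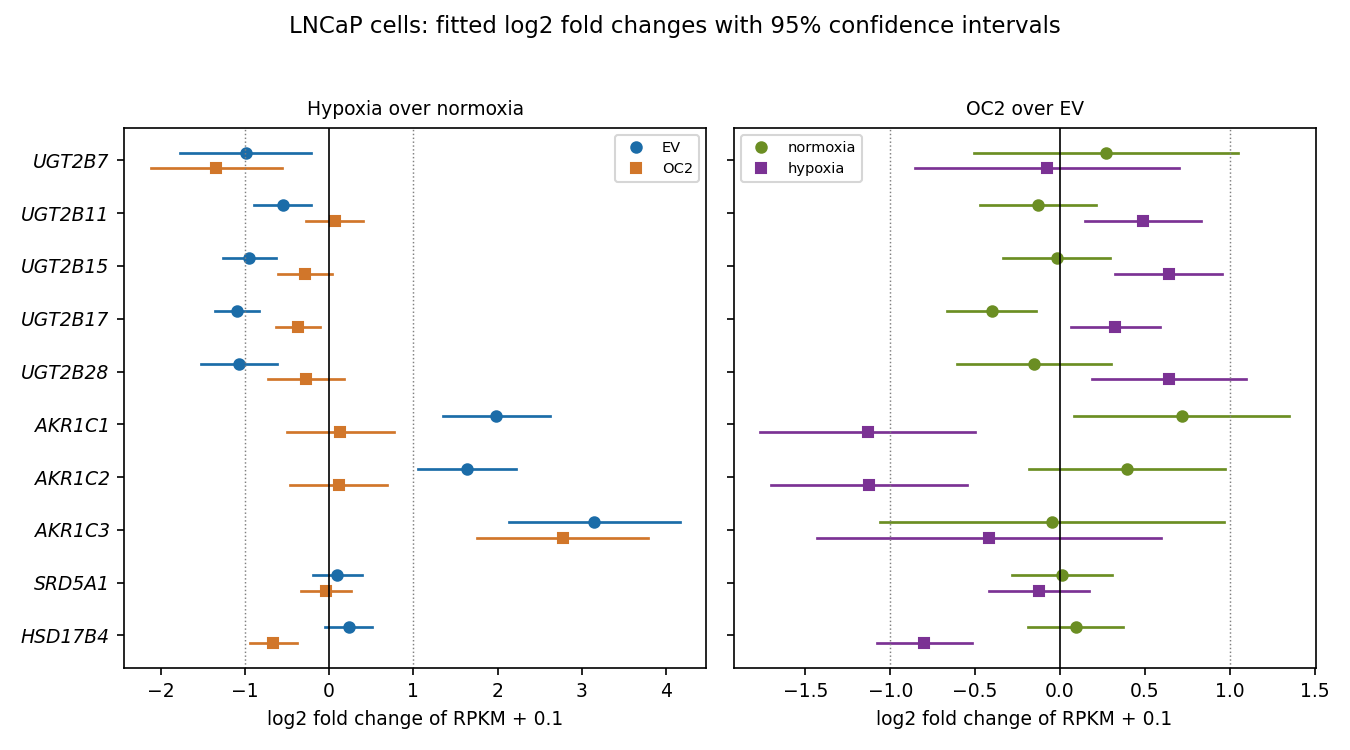
Log2 fold changes of RPKM + 0.1 (horizontal axes) with 95% confidence intervals from limma for the 10 enzymes in LNCaP cells, hypoxia over normoxia in EV (blue circles) and OC2 (orange squares) libraries on the left, and OC2 over EV in normoxia (green circles) and hypoxia (purple squares) on the right; dotted lines mark a 2-fold change. In the left panel the EV points of UGT2B15, UGT2B17, UGT2B28, AKR1C1 and AKR1C2 lie farther from 0 than the OC2 points, and those of AKR1C3 lie close together.

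The enzymes were then compared between OC2 and EV libraries at each oxygen level. This reuses the libraries of the hypoxia comparisons, so it is not a separate line of evidence. In normoxia 0 of 10 members were called, against 3.29% of all genes, and 0 had a limma adjusted p under 0.05, against 5.26%. An unadjusted P under 0.05 was found for UGT2B17, with a log2 fold change of OC2 over EV of -0.40, and for AKR1C1, with 0.72, 2 of 10 members against 24.1% of all genes. In hypoxia AKR1C1 and AKR1C2 were called, 2 of 10 members against 4.47% of all genes, and 4 of 10 had an adjusted p under 0.05 against 11.5%. AKR1C1 was 2.3-fold and AKR1C2 2.28-fold lower in the mean with OC2 than with EV. Their log2 fold changes were -1.13 (standard error 0.28, limma adjusted p = 0.0364) and -1.12 (standard error 0.25, limma adjusted p = 0.0272). Without replicate 1 of the OC2 libraries in hypoxia that of AKR1C2 was -0.96, under the fold limit. As AKR1C1 and AKR1C2 are close copies, their 2 calls may not be independent. Together they summed to 2.12 ± 0.309 RPKM (SD, n = 2) with OC2 and to 4.87 ± 0.290 RPKM (SD, n = 2) with EV. The other 2 members with an adjusted p under 0.05 were HSD17B4 and UGT2B15. HSD17B4 was at -0.80 (standard error 0.12, limma adjusted p = 0.00669) and UGT2B15 at 0.64 (standard error 0.14, limma adjusted p = 0.0239). UGT2B11, UGT2B17 and UGT2B28 had log2 fold changes of 0.49, 0.33 and 0.64 with adjusted p of 0.0693, 0.101 and 0.0726, and in each both OC2 libraries in hypoxia lay above both EV libraries, as they did in 31.6% of all genes. UGT2B15 and UGT2B17 together summed to 89.4 ± 6.08 RPKM (SD, n = 2) with OC2 and to 61.6 ± 2.32 RPKM (SD, n = 2) with EV. The LNCaP markers KLK3, KLK2, TMPRSS2 and FOLH1 were also lower with OC2 than with EV, 4 of 4 at both oxygen levels, with 0 called and 3 at a limma adjusted p under 0.05 in hypoxia. Their median log2 fold changes were -0.35 in normoxia and -0.50 in hypoxia, against -0.08 and -0.01 for all genes. Their sum, most of it KLK3, was 2719 and 2754 RPKM with OC2 against 3107 and 3116 RPKM with EV in normoxia, and 4252 and 4036 RPKM against 5840.3 and 5502 RPKM in hypoxia, and the part of this shift in the enzymes' values was not tested.

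Whether ONECUT2 changed the response to hypoxia was tested as the interaction, the OC2 over EV difference in hypoxia minus that in normoxia. AKR1C1 (-1.85, standard error 0.39) and AKR1C2 (-1.52, standard error 0.36) passed the fold and unadjusted P limits, 2 of 10 members against 3.7% of all genes. After adjustment over all genes 0 of 10 had a limma p under 0.05, against 0.244% of all genes, and 7 of 10 had an unadjusted P under 0.05, against 16.9%. Adjusted p were 0.098 for AKR1C1 and 0.113 for AKR1C2, close copies whose 2 calls may not be independent. HSD17B4 had an interaction of -0.89 (limma adjusted p = 0.0878), and UGT2B11, UGT2B15, UGT2B17 and UGT2B28 had 0.62, 0.66, 0.73 and 0.80 (limma adjusted p = 0.21, 0.169, 0.1 and 0.221). These 4 UGT2B values are positive where those of AKR1C1, AKR1C2 and HSD17B4 are negative, and all 7 rest in part on the same EV libraries in hypoxia. The remaining UGT2B gene, UGT2B7, had a negative interaction, without an unadjusted P under 0.05. For AKR1C3, which rose in hypoxia with EV and with OC2, the interval ran from -1.81 to 1.06, which includes a weaker response and an equal one, and for SRD5A1 it ran from -0.55 to 0.28.

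In PC3 cells all 3 AKR1C genes were higher after ONECUT2 was silenced. The same test covered 12214 genes, which hold 5 members (the AKR1C genes, SRD5A1 and HSD17B4), and the ONECUT2 effect was siCtrl over siOC2, so a negative value marks a gene that is higher without ONECUT2. In normoxia AKR1C3 was called, 1 of 5 members against 5.21% of all genes, and in hypoxia AKR1C1, 1 of 5 against 7.5%. No member had a limma adjusted p under 0.05 in either, against 0.00819% and 0.0901% of all genes, and 1 of 5 members each had an unadjusted P under 0.05, against 9.2% and 12.1%. AKR1C1 and AKR1C2 reached 1 RPKM only in siOC2 libraries, so they were tested only through the group in which they are high. AKR1C3 stood at 1.42 and 2.00 RPKM with siCtrl and at 3.11 and 5.51 RPKM with siOC2 in normoxia (log2 fold change -1.25, standard error 0.40, limma adjusted p = 0.37), and at 3.59 and 2.74 RPKM against 4.14 and 5.55 RPKM in hypoxia. AKR1C1 stood at 0.219 and 0.498 RPKM against 0.841 and 1.45 RPKM in normoxia, and at 0.688 and 0.471 RPKM against 4.09 and 1.38 RPKM in hypoxia (log2 fold change -1.89, standard error 0.67, limma adjusted p = 0.31). These are low values with a wide spread. AKR1C2 stood at 0.352 and 0.653 RPKM against 0.767 and 1.34 RPKM, and at 0.844 and 0.712 RPKM against 1.55 and 2.03 RPKM. For each of the 3 genes, and at both oxygen levels, both siOC2 libraries lay above both siCtrl libraries, as they did in 31.4% of all genes tested in normoxia and 18.8% in hypoxia. SRD5A1 had the same order in normoxia, at 3.14 and 3.66 RPKM with siCtrl against 4.36 and 4.65 RPKM with siOC2 (log2 fold change -0.40), and overlapped in hypoxia (0.03). HSD17B4 overlapped at both oxygen levels (-0.10 and 0.11), and neither gene was called.

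These calls in PC3 cells depended on single libraries. Without siCtrl replicate 1 or siOC2 replicate 2 in normoxia the log2 fold change of AKR1C3 was -1.02 or -0.85 and no longer called, and without siCtrl replicate 2 or siOC2 replicate 1 in hypoxia that of AKR1C1 was -1.66 or -1.14 and no longer called. The libraries in question include the 3 shallowest, with an estimated depth of 0.365 (siCtrl replicate 1 in normoxia), 0.334 (siCtrl replicate 2 in hypoxia) and 0.303 (siOC2 replicate 1 in hypoxia) of the deepest PC3 library. With a term for the siRNA, chosen after the data were seen, AKR1C3 in normoxia had a limma adjusted p of 0.0294 and AKR1C1 in hypoxia of 0.0391, and 2 of 5 members were called at each oxygen level (AKR1C1 with AKR1C3, and AKR1C1 with AKR1C2), against 8.29% and 11.3% of all genes in that fit. It removes the difference between the siRNAs from the error, and 770 and 1338 of the 12214 genes then had an adjusted p under 0.05. The sum of the 3 AKR1C genes was 2.57 ± 0.820 RPKM (SD, n = 2) with siCtrl and 6.51 ± 2.53 RPKM (SD, n = 2) with siOC2 in normoxia, and 4.52 ± 0.850 against 9.37 ± 0.588 RPKM (SD, n = 2 each) in hypoxia. The PC3 markers CD44, VIM, CAV1 and AXL were lower after silencing in the same libraries (4 of 4 genes at both oxygen levels), at a sum of 370 and 460 RPKM against 656 and 800 RPKM in normoxia and of 311 and 709 RPKM against 1157 and 989 RPKM in hypoxia, with CD44 the most abundant. In normoxia 0 and in hypoxia 2 of the 4 were called (5.21% and 7.5% of all genes), with 0 at a limma adjusted p under 0.05. Their median log2 fold changes of siCtrl over siOC2 were 0.92 in normoxia and 1.14 in hypoxia, against -0.13 and 0.03 for all genes. The part of this shift in the AKR1C values was not tested.

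**Figure D3:**
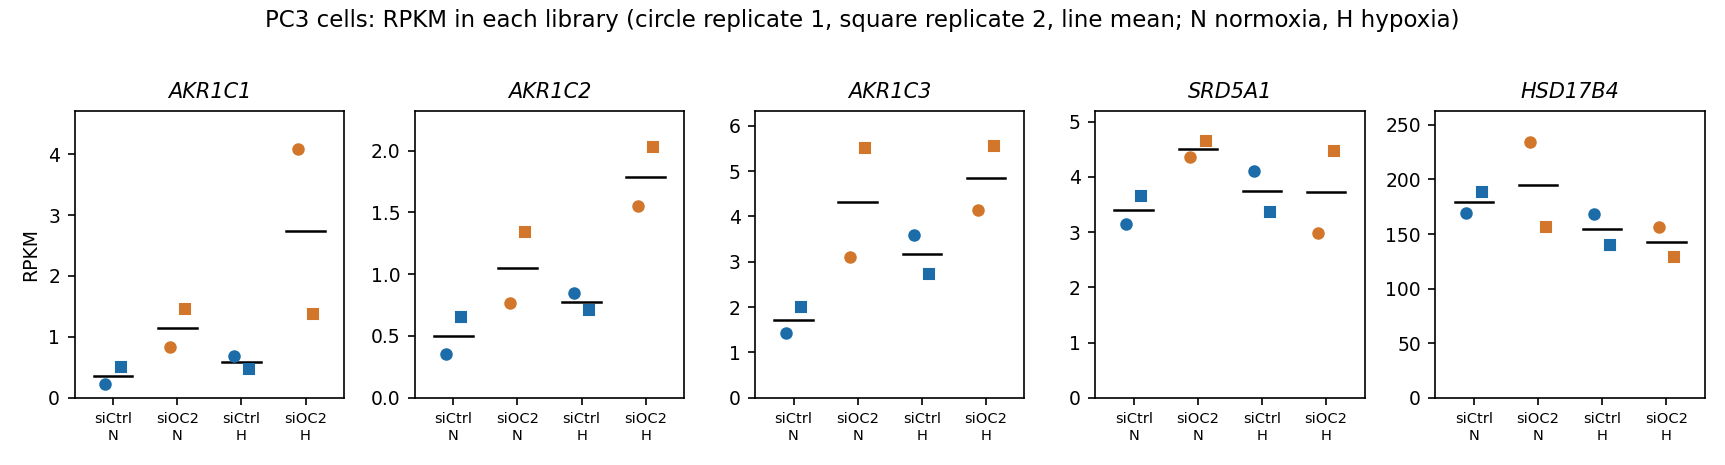
RPKM (vertical axes, linear from 0) of the 5 enzymes tested in PC3 cells in the 8 libraries, by siCtrl (blue) or siOC2 (orange) in normoxia (N) or hypoxia (H); circles are replicate 1 (siRNA1 in siOC2), squares replicate 2 (siRNA2) and lines the mean of both. Both siOC2 libraries lie above both siCtrl libraries in AKR1C1, AKR1C2 and AKR1C3 at each oxygen level, and AKR1C1 reaches 4.09 RPKM in siOC2 replicate 1 in hypoxia alone.

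Hypoxia itself called no member in PC3 cells. The limma counts were 0 of 5 with siCtrl (3.86% of all genes called) and 0 of 5 with siOC2 (3.46%), and 0 had an adjusted p under 0.05 (0.27% and 0.00819% of all genes) or an unadjusted P under 0.05 (7.38% and 6.71%). AKR1C3 with siCtrl had a log2 fold change of 0.86 and a 95% confidence interval from -0.05 to 1.77. Its hypoxic libraries lay above its normoxic ones, as did those of AKR1C2 with siCtrl and of 22.1% of all genes. AKR1C2 was 1.55-fold higher in the mean in hypoxia with siCtrl and 1.7-fold with siOC2. AKR1C1 with siOC2 was 2.39-fold higher in the mean, past the fold limit, but its libraries overlapped. The interval of AKR1C3 with siCtrl includes a rise of more than 2-fold, so these libraries cannot show that PC3 cells lack an induction of that size. It does not reach the log2 fold change of 3.15 measured for AKR1C3 in LNCaP cells with EV. The lines were not tested against each other. The interaction of ONECUT2 and hypoxia was called for 0 of 5 members, with 0.942% of all genes called and 0% at an adjusted p under 0.05, and 0 of 5 had an unadjusted P under 0.05, against 1.03%. HSD17B4 stood at 170 and 189 RPKM in normoxia and at 169 and 140 RPKM in hypoxia with siCtrl, lower in hypoxia without overlap as were 32.9% of all genes, and at 234 and 157 and then 156 and 129 RPKM with siOC2. SRD5A1 overlapped between the oxygen levels in both.

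The enzymes around the members were followed with a list of 26 genes of steroid synthesis and a list of 24 genes of conjugation and transport, of which 15 and 13 were tested in LNCaP cells. In hypoxia with EV the synthesis list had 3 genes called upward and 1 downward (7.95% of all genes were called), 7 with an adjusted p under 0.05 (32.3% of all genes) and a median log2 fold change of 0.02 against 0.02 for all genes. The conjugation list had 0 called upward and 2 downward, 4 with an adjusted p under 0.05 and a median of 0.19. CYP11A1, the mitochondrial enzyme that starts steroid synthesis from cholesterol, stood at 0.783 RPKM in both EV libraries in normoxia and at 40.4 and 45.9 RPKM in hypoxia (log2 fold change 5.61, standard error 0.49, limma adjusted p = 1.9e-04). With OC2 it reached only 4.18 and 15.7 RPKM in hypoxia, which is -2.39 for OC2 over EV on the log2 scale (standard error 0.49, limma adjusted p = 0.02). Neither hypoxic OC2 library reached the EV libraries in this gene, which passed the filter only through its 4 hypoxia libraries. HSD17B11, which oxidizes androstanediol, rose by 2.05 on the log2 scale with EV and by 1.57 with OC2, and HSD11B2, which inactivates cortisol, by 1.57 with EV. With OC2 HSD11B2 was called too, from 26.2 and 29.1 RPKM to 78.6 and 77.8 RPKM. HSD17B8 was the gene called downward, at -1.43, and is named here after its values were seen. In hypoxia with OC2 the lists had 3 and 0 genes called upward and 1 and 2 downward (6.84% of all genes), and for OC2 over EV the only call of either list was CYP11A1 in hypoxia.

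UGT2B10, a further gene of the UGT2B cluster that conjugates amines, fell more than any of the 5 UGT2B members, from 8.30 and 7.43 RPKM to 0.859 and 0.920 RPKM with EV (log2 fold change -3.01, standard error 0.20, limma adjusted p = 5.2e-05) and from 6.85 and 7.30 RPKM to 1.68 and 1.12 RPKM with OC2. UGT8, which makes galactosylceramide, fell by 1.84 on the log2 scale with EV and by 1.15 with OC2. It passed the filter through its normoxia libraries, where it is high, and an OC2 library in hypoxia at 1.02 RPKM. The enzymes that supply the sugar were not called. UGDH, which makes UDP-glucuronic acid, stood at 125 and 103 RPKM in normoxia and at 107 and 117 RPKM in hypoxia with EV, and UGP2, which makes its precursor UDP-glucose, at 77.1 and 55.8 and then 72.6 and 77.5 RPKM. FDXR, the reductase that feeds electrons to mitochondrial cytochromes, was higher with OC2 than with EV by 0.78 on the log2 scale in normoxia (limma adjusted p = 0.0431) and by 0.96 in hypoxia (limma adjusted p = 0.0135).

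In PC3 cells 16 genes of the synthesis list and 13 of the conjugation list were tested, and in hypoxia with siCtrl 2 and 3 were called upward and 2 and 0 downward (3.86% of all genes), none with an adjusted p under 0.05. Medians were -0.30 and 0.08 against -0.07 for all genes. Besides the genes described next and FDXR (-1.24), those called were HSD17B6, SRD5A3 and STS upward and HSD17B1 downward, named after their values were seen. Of the ONECUT2 comparisons there, HSD17B6 and SLC35D1 were called in normoxia, both higher after silencing, and HSD17B11 in hypoxia, lower after silencing. UGP2 was at 65.4 and 75.3 RPKM in normoxia and at 176 and 163 RPKM in hypoxia (log2 fold change 1.27, limma adjusted p = 0.106), and SLCO1B3, a transporter that takes up steroid conjugates, at 6.01 and 7.26 and then 40.1 and 31.3 RPKM (log2 fold change 2.41, limma adjusted p = 0.425). UGDH split by siRNA. It stood at 2.27 and 2.83 RPKM in the siRNA2 libraries of both oxygen levels, at 31.1 and 36.6 RPKM in the siRNA1 libraries and between 18.8 and 27.1 RPKM with siCtrl, so its siOC2 groups have no common level.

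**Figure D4:**
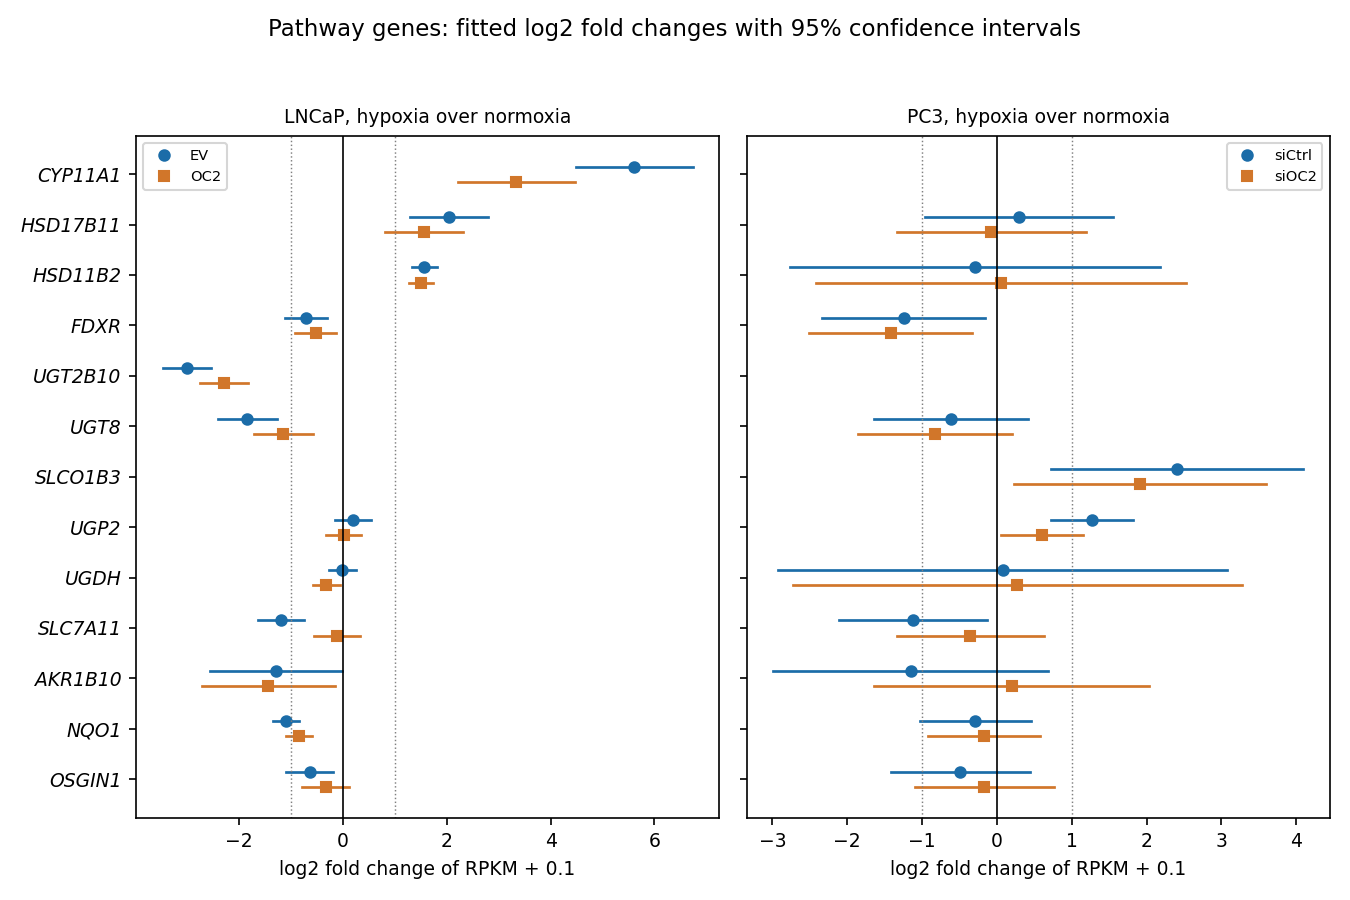
Log2 fold changes of RPKM + 0.1 of hypoxia over normoxia (horizontal axes) with 95% confidence intervals from limma for the named genes of the synthesis, conjugation and NRF2 target lists, in LNCaP cells with EV or OC2 (left) and PC3 cells with siCtrl or siOC2 (right); dotted lines mark a 2-fold change, and a gene without a point was not tested in that line. CYP11A1 lies at 5.61 with EV and 3.34 with OC2, and UGT2B10 at -3.01 and -2.28.

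NRF2 is a known regulator of the AKR1C genes, so a list of its other targets was measured beside them. The list also holds NFE2L2, the gene of NRF2 itself, and KEAP1, the gene of its repressor. Both were tested in each line, and the counts and medians below include them. Of 16 genes of this list tested in LNCaP cells, 0 were called upward and 3 downward in hypoxia with EV. Of all genes, 7.95% were called in either direction. In the list 7 had a limma adjusted p under 0.05, against 32.3% of all genes. Its median log2 fold change was -0.15, with 5 of 16 above 0. HMOX1, a heme oxygenase, and GCLC, a glutathione synthesis enzyme, are named after their values were seen. Both rose below the fold limit, HMOX1 from 3.03 and 4.50 RPKM to 7.69 and 6.84 RPKM (limma adjusted p = 0.0076) and GCLC from 13.1 and 10.9 RPKM to 16.7 and 23.6 RPKM (limma adjusted p = 0.0143). NQO1, a quinone reductase, fell from 78.0 and 80.1 RPKM to 36.1 and 37.6 RPKM (log2 fold change -1.10, limma adjusted p = 3.1e-04), SLC7A11, the cystine transporter, fell by 1.19 on the log2 scale, and AKR1B10, an aldo-keto reductase of a neighbouring family, was called at -1.29. The values of AKR1B10 were 0.248 and 0.407 RPKM and then 0.0311 and 0.125 RPKM, and it passed the filter only through the 2 OC2 libraries in normoxia. OSGIN1 was higher with OC2 than with EV in hypoxia by 1.07 (limma adjusted p = 0.0137), where AKR1C1 and AKR1C2 were lower. Of the 16 listed genes, 8 were higher and 8 lower in that comparison, with 2 called upward and 0 downward (4.47% of all genes called). Their median log2 fold change was 0.03, against -0.01 for all genes. In PC3 cells 5 of 16 listed genes were above 0 and 11 below for siCtrl over siOC2 at each oxygen level. At each level 0 were called upward and 1 downward, against 5.21% of all genes called in normoxia and 7.5% in hypoxia. Medians were -0.23 in normoxia and -0.25 in hypoxia, against -0.13 and 0.03 for all genes. The 1 called was SLC7A11, with log2 fold changes of siCtrl over siOC2 of -1.13 in normoxia and -1.89 in hypoxia (limma adjusted p = 0.481 and 0.135). NQO1 there was at 42.7 and 46.0 RPKM with siCtrl and at 36.2 and 26.3 RPKM with siOC2 in normoxia, the opposite order.

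That the cells responded to 0.2% oxygen was checked with 12 genes of the hypoxia response. With EV and with OC2 in LNCaP cells all 10 tested were called upward, and in PC3 cells 11 of 12 were, with siCtrl and with siOC2, against 7.95%, 6.84%, 3.86% and 3.46% of all genes called in the 4 comparisons. CA9, a carbonic anhydrase, rose from 0.938 and 0.386 RPKM to 50.01 and 45.1 RPKM in siCtrl PC3 cells (log2 fold change 6.07, limma adjusted p = 0.00515) and from 0.473 and 0.531 RPKM to 5.38 and 3.56 RPKM in LNCaP cells with EV (log2 fold change 2.90, limma adjusted p = 0.00234), where it passed the filter only through its 4 hypoxia libraries. In PC3 cells CA9 passed the filter through its hypoxia libraries and a siOC2 library in normoxia, at 1.54 RPKM. PGK1 in LNCaP cells with EV rose by 2.22 and SLC2A1 by 2.28 on the log2 scale.

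Across the 8 LNCaP libraries the tested genes most like UGT2B15, by Pearson r of log2(RPKM + 0.1), were RNFT1 (r = 0.98), GLB1L, USP40, PABPC5 and NR2F2 (r = 0.974), and those most like AKR1C3 were C17orf96 (r = 0.993), QSOX1, LZTS2, GRAMD1A and RNMT (r = 0.99). In PC3 cells those most like AKR1C3 were RAI2 (r = 0.983), RGS4, IGF2BP3, RPRD1A and CPEB2 (r = 0.965). These are the 5 highest of 12283 or 12214 genes in 8 libraries of 4 groups, so high values of r are found by the search itself and carry no test.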

How the data were processed

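Per the labels and methods, the authors sequenced stranded poly(A) libraries, aligned reads with STAR 2.4.2a to hg19 and computed the deposited RPKM with Cufflinks 2.1.1 and GENCODE v24 models. One table per cell line was deposited, so groups were tested within a line only. Here limma 3.58.1 (R 4.3.3) was fitted to log2(RPKM + 0.1) of genes that reached 1 RPKM in 2 or more of 8 libraries, with 4 groups, a mean-variance trend and two-sided tests, and p-values were Benjamini-Hochberg adjusted over all genes tested. Calls used the study's limits of a fold over 2 and an unadjusted P under 0.05. Fold changes on this scale understate those of low genes. With 2 against 2 libraries an exact rank test cannot go below p = 0.33. RPKM hold no total counts, so only relative depth is given. The fit was checked on simulated data. From each pathway list up to 4 genes called in most of the 8 ONECUT2 and hypoxia contrasts were named (ties by the smallest unadjusted P), and always KLK3, UGDH, UGP2, NQO1 and CA9. A further list is not reported here. The members and lists were chosen with earlier results of these data known. Alternatives were the pseudocount, the filter, upper quartile scaling, an adjusted p limit, zeros as missing, only the groups compared, the replicate block, a term for the siRNA and each library left out.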

Additional observations from a re-analysis of the deposited data

Results flagged for a closer look

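In LNCaP cells 7 of the 10 enzymes responded to ONECUT2 differently in hypoxia and in normoxia at an unadjusted limma P under 0.05, as did 16.9% of all genes tested, and none of the 7 kept it after adjustment over all genes. The difference of the OC2 over EV log2 fold changes, hypoxia minus normoxia, was 0.62 for UGT2B11, 0.66 for UGT2B15, 0.73 for UGT2B17 and 0.80 for UGT2B28. It was -1.85 for AKR1C1, -1.52 for AKR1C2 and -0.89 for HSD17B4. UGT2B10, a neighbour of the 5 UGT2B members, had 0.73 at an unadjusted P of 0.0335.

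HSD17B4 lay lower in hypoxia in the control cells of one line and higher in those of the other. Its log2 fold change was -0.22 in PC3 cells with siCtrl, where both hypoxic libraries lay below both normoxic ones as in 32.9% of all genes, and 0.23 in LNCaP cells with EV, where both lay above as in 37.1% of all genes. The nearest of these PC3 libraries almost touched, at 168.8 RPKM in hypoxia and 169.6 RPKM in normoxia. The difference between the lines was not tested, and neither log2 fold change was called.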

How the results depend on the processing

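Counts of members called were recomputed under each alternative, with the share of all genes called in brackets. A pseudocount of 1, which shrinks folds of low genes, gave 0 (3.59%) for ONECUT2 in normoxia in PC3 cells and, in LNCaP cells, 0 (2.29%) for ONECUT2 in hypoxia, 3 (4.84%) for hypoxia with EV, 1 (3.93%) for hypoxia with OC2 and 1 (1.76%) for the interaction. A filter of 5 RPKM, which removes AKR1C1 and AKR1C2 in both lines, SRD5A1 in PC3 cells and AKR1C3 and UGT2B7 in LNCaP cells, gave 0 for ONECUT2 in hypoxia in both PC3 (7.2%) and LNCaP cells (2.02%), 2 (6.17%) for hypoxia with EV, 0 (5.01%) for hypoxia with OC2 and 0 (2.01%) for the interaction in LNCaP cells. Without a filter, and with upper quartile scaling, ONECUT2 in hypoxia in PC3 cells called 2 (5.25% and 7.7%). The scaling also raised hypoxia with EV from 5 to 7 (7.95% to 7.87%), adding UGT2B7 (-1.06) and UGT2B15 (-1.03). That scaling shifted the all-gene median (log2) in LNCaP cells from -0.08 to 0.04 for ONECUT2 in normoxia and from 0.09 to -0.02 for hypoxia with OC2. An adjusted p under 0.05 alone gave 0 and 0 (0.00819% and 0.0901%) for ONECUT2 in normoxia and hypoxia in PC3 cells and, in LNCaP cells, 4 (11.5%) for ONECUT2 in hypoxia, 4 (26.9%) for hypoxia with OC2 and 0 (0.244%) for the interaction. The siRNA term gave 2 and 2 (8.29% and 11.3%) for ONECUT2 in normoxia and hypoxia in PC3 cells.

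With the replicate number as a block the counts were unchanged, at 1 and 1 for ONECUT2 in normoxia and hypoxia and 0 for the other contrasts in PC3 cells, and at 0, 2, 5, 2 and 2 in LNCaP cells. Swapping the siCtrl numbers in normoxia, tried after seeing the correlations of same-numbered libraries, gave 1, 1, 0, 0 and 0. For siCtrl in normoxia these were -0.107 with siOC2 in normoxia, -0.186 with siCtrl in hypoxia and 0.0759 with siOC2 in hypoxia. Apart from the siRNAs, whose 2 siOC2 groups correlated at 0.618, the libraries share only a number. The highest correlation in LNCaP cells was 0.275, between EV and OC2 in hypoxia, and the others lay below 0.1.

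Leaving out each library in turn gave 0 to 2 called (3.04% to 6.74% of all genes) for ONECUT2 in normoxia, 0 to 1 for ONECUT2 in hypoxia and 0 to 1 for hypoxia with siOC2 in PC3 cells. The share of all genes called moved as well, from 3.46% to 22.9% for hypoxia with siOC2 and from 7.5% to 19.7% for ONECUT2 in hypoxia without siOC2 replicate 2 in hypoxia, and to 4.62% for the latter without siCtrl replicate 2 in hypoxia. For the PC3 interaction that share ran from 0.385% without siCtrl replicate 1 in normoxia to 12.5% without siOC2 replicate 2 in hypoxia. In LNCaP cells it gave 0 to 1 (3.26% to 4.04%) for ONECUT2 in normoxia, 1 to 2 (4.17% to 5.62%) for ONECUT2 in hypoxia, 5 to 7 (7.92% to 9.44%) for hypoxia with EV (7 called without EV replicate 2 in normoxia, which adds UGT2B7 and UGT2B15), 1 to 2 (6.31% to 8.24%) for hypoxia with OC2 and 2 to 3 (3% to 4.74%) for the interaction (adding UGT2B28 or HSD17B4). The sign turned, among others, for AKR1C3 in hypoxia with siOC2 (-0.20 to 0.61), for the PC3 interactions of AKR1C1 (-1.18 to 0.33) and HSD17B4 (-0.081 to 0.50), for UGT2B7 with ONECUT2 in normoxia in LNCaP cells (-0.13 to 0.68), and for the LNCaP interactions of UGT2B7 (-0.75 to 0.056) and AKR1C3 (-0.99 to 0.25), none of which were called. Values near 0 turned too, such as those of ONECUT2 in PC3 cells for HSD17B4 in normoxia and SRD5A1 in hypoxia, each without siOC2 replicate 1 of that oxygen level. The calls of UGT2B17, AKR1C1 and AKR1C3 in hypoxia with EV, of AKR1C3 in hypoxia with OC2 and of AKR1C1 in the interaction held under each of these alternatives in which the gene was tested, other than the adjusted p limit for the interaction. With 2 libraries a group, standard errors of 0.40 to 0.67 (log2) limit what could be detected for the AKR1C genes in PC3 cells.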
